A study of Mus musculus with 28 samples.

Results

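Mouse fibroblasts that had received Foxa2 together with Hnf4a were compared at 2 stages, as established induced hepatocyte-like (iHep) cells and 48 h into conversion. The comparison uses 6 of the 28 libraries of the series, chosen by their titles: 4 of the iHep stage (iHep_Foxa2) and 2 of the 48 h stage (48h_Foxa2). The parent cells of all 6 were C57BL/6 embryonic fibroblasts (MEFs) taken 13.5 days after conception, infected with retroviruses made from pGCDNsam backbones that carried Foxa2 and Hnf4alpha. Both stages therefore carry both factors, and no library of cells with an empty vector was used. The age of the iHep cultures in days, the promoter that drove the factors, and whether replicates came from separate infections were not stated. The p-values therefore measure only the spread between libraries, pooled within the groups of all 28 libraries of the series. Libraries of the same design with Foxa1 or Foxa3 in place of Foxa2, MEFs without factors, and hepatocytes (Hep) from livers of 10-week-old mice serve as outside comparisons.

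Foxa2 is a forkhead transcription factor that opens compact chromatin in the endoderm, the germ layer of liver, gut, stomach and lung. Hnf4a is a nuclear receptor that drives genes of hepatocytes and of intestinal and gastric epithelium. Conversion of a fibroblast into an epithelial cell requires the loss of collagens, contractile proteins and mesenchymal transcription factors as well as the gain of junctions and tissue-specific products. The questions addressed here are which genes were gained and lost after the first 48 h, and how far the late gains resemble liver.

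Levels are given in CPM, the expected counts of a gene per 1000000 counts of a scaled library. The iHep_Foxa2 libraries held between 25354288 and 30983889 counts, and the 48h_Foxa2 libraries held 42949147 and 39074387. The 2 stages also differ in library type. Rn7sk, a short non-polyadenylated RNA, stood at 1.31, 2.16, 1.79 and 0 CPM in iHep_Foxa2 libraries 1 to 4, against 19.7 and 28 CPM in the 48h_Foxa2 libraries. Rps29, a short ribosomal protein mRNA, stood at 25, 28, 32.3 and 23.8 CPM in iHep_Foxa2, against 274 and 249 CPM in 48h_Foxa2. Every iHep_Foxa2 library thus lies in a set with Rn7sk under 10 CPM (the low set) and both 48h_Foxa2 libraries in a set above it (the high set), so that stage and library set cannot be told apart within the 6 libraries. The iHep_Foxa1 and iHep_Foxa3 groups hold libraries of both sets. They allowed a fit with a term for the set, and stage comparisons within the high set. These were iHep_Foxa1 replicates 4 to 6 against 48h_Foxa1, and iHep_Foxa3 replicates 2 to 6 against 48h_Foxa3. The test of iHep_Foxa2 against 48h_Foxa2 keeps both groups whole, so the spread behind its p-values includes differences between the sets. For Rps29 the SE was 1.01 in that test. It was 0.23 for iHep_Foxa1 replicates 1 to 3 against 48h_Foxa1 in the fit split by set.

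Late change was broad and ran in both directions. Of 16499 genes tested by edgeR's quasi-likelihood test, 6619 (40.1%) passed an adjusted p of 0.05 (Benjamini-Hochberg) in iHep_Foxa2 against 48h_Foxa2, 3363 higher (20.4%) and 3256 lower (19.7%), with a median log2 fold change of 0.02 over all genes. The libraries of the stages did not overlap for 10965 genes (66.5%), 5302 higher (32.1%) and 5663 lower (34.3%). The count fell to 3647 without 48h_Foxa2 replicate 1 and to 3720 without replicate 2, which leave that stage with a lone library assumed to vary like the other groups. With the set term 5299 genes were called, 2684 higher and 2615 lower. The stage comparisons within the high set share no library with the Foxa2 comparison. With Foxa1, 8567 genes (51.9%) were called there, 25.3% of all genes higher and 26.6% lower. Of the genes that rose with Foxa2, 2233 (66.4%) were called higher with Foxa1 and 14 lower. Of the genes that fell with Foxa2, 2263 (69.5%) were called lower with Foxa1 and 81 higher. With Foxa3, 8148 genes (49.4%) were called, 24.4% of all genes higher and 24.9% lower. Among the Foxa2 rises 2329 (69.3%) were called higher with Foxa3 and 15 lower. Among the Foxa2 falls 2345 (72%) were called lower and 35 higher.

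**Figure D1:**
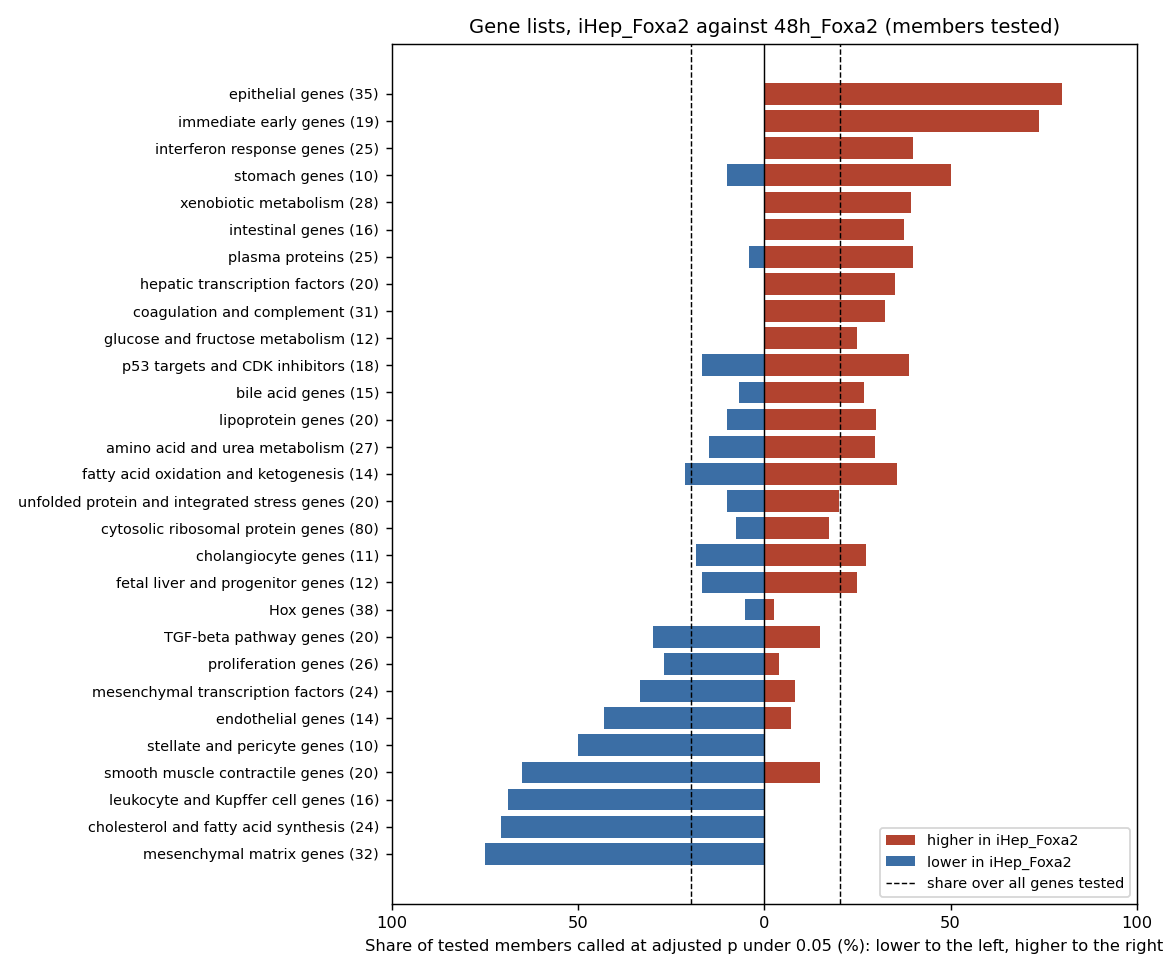
Share of tested members (%) called higher (right, red) or lower (left, blue) in iHep_Foxa2 against 48h_Foxa2 for each gene list with at least 10 tested members, whose number stands in parentheses. Dashed lines mark the shares over all 16499 genes, 20.4% higher and 19.7% lower. Epithelial genes lie at the top with 80% higher, and mesenchymal matrix genes at the bottom with 75% lower.

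The delivered factor itself was far more abundant at the late stage. Foxa2 stood at 3280, 2360, 988 and 1250 CPM in iHep_Foxa2, against 45.7 and 45.5 CPM in 48h_Foxa2. All 4 late libraries lay above both early ones (log2 fold change 5.43 ± 1.17 SE, adjusted p = 0.00106). Its counts do not separate the introduced cDNA from the endogenous gene. With the set term the value was -0.46 (adjusted p = 0.62), although the libraries that inform this term hold almost no Foxa2 (means of 0.407 CPM in iHep_Foxa1 replicates 1 to 3 and 0.014 CPM in replicates 4 to 6). Hnf4a stood at 258, 316, 151 and 33.3 CPM in iHep_Foxa2, against 80.5 and 64.6 CPM in 48h_Foxa2. Replicate 4 lay below both early libraries and the other 3 above them, and Hnf4a was not called (log2 fold change 1.39 ± 0.66 SE, adjusted p = 0.0999). It passed the threshold without iHep_Foxa2 replicate 4 (1.74, adjusted p = 0.0207) and with the set term (2.39, adjusted p = 0.0178). Foxa1 and Foxa3 stayed low, at no more than 1.43 and 0.219 CPM in any iHep_Foxa2 library and 0.398 and 0.117 CPM in any 48h_Foxa2 library, and neither was called.

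The largest late gains held several products of mucosal epithelia. The 12 called genes with the largest fitted rises, without overlap between the stages and with a mean of at least 20 CPM, were Gkn2 (a gastrokine of gastric surface mucous cells), Tff1 and Tff3 (trefoil factors of stomach and intestine), Zg16 and Clca1 (products of goblet cells), Gcnt3 (a glycosyltransferase of mucin cores), Psca (a surface antigen of gastric and other epithelia), Mal (an apical sorting protein), Scnn1g (a subunit of the epithelial sodium channel), Krt6a (a stratified-epithelium keratin), Rbp2 (the retinol-binding protein of enterocytes) and Ms4a4b. The first, Gkn2, stood at 291, 301, 530 and 81.6 CPM in iHep_Foxa2 and had no count in either 48h_Foxa2 library. Against a floor of 3 counts over the 48h group, this is at least 9000-fold higher (adjusted p = 0.000148). Tff1 stood at 186, 311, 7.97 and 106 CPM in iHep_Foxa2 and at 0 in 48h_Foxa2, at least 4570-fold higher (adjusted p = 0.000361). Replicate 3, the highest library for Gkn2, was the lowest for Tff1. The goblet-cell gene Clca1 showed the same spread, with 1890, 1760, 16.5 and 190 CPM in iHep_Foxa2 against 0 and 0.117 CPM in 48h_Foxa2 (adjusted p = 0.000314). Scnn1g was more even, at 121, 52.3, 27.2 and 39.9 CPM in iHep_Foxa2 and 0 in 48h_Foxa2 (adjusted p = 3.81e-06), at least 1800-fold higher. Ms4a4b was the most even of the zero-count gains named here, at 41.5, 20.4, 51.0 and 45.1 CPM in iHep_Foxa2 and 0 in 48h_Foxa2, at least 1180-fold higher (adjusted p = 0.00312).

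**Figure D2:**
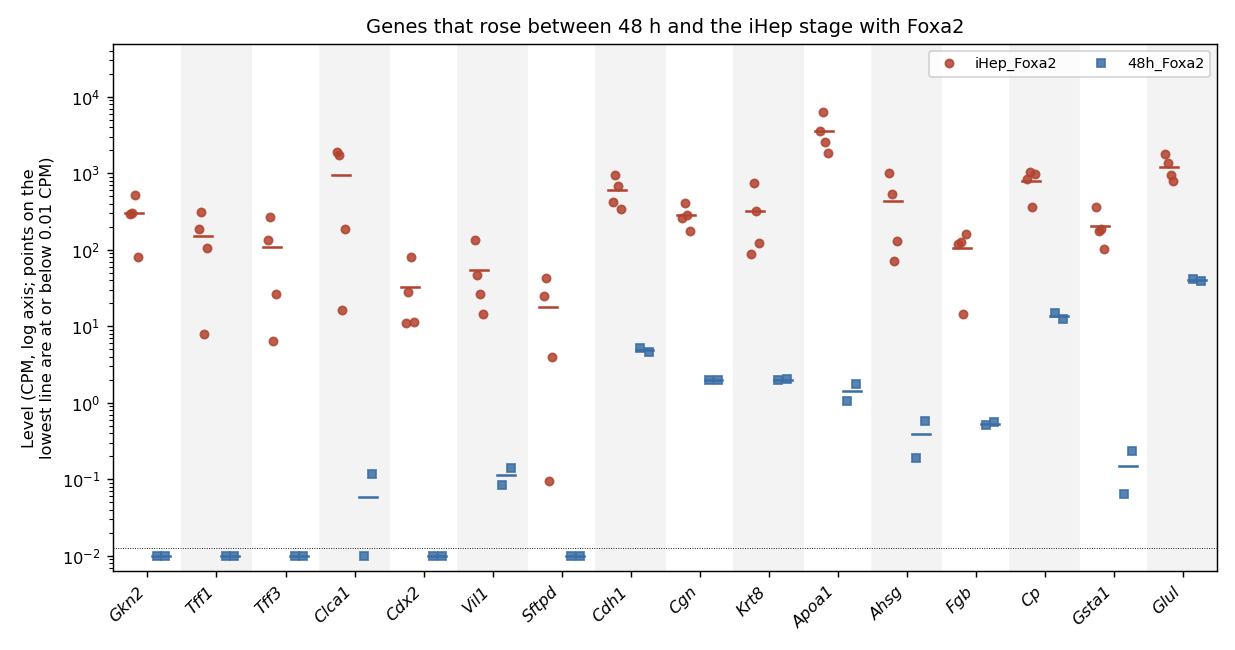
Level in CPM on a log axis for 16 genes that rose, in the 4 iHep_Foxa2 libraries (red circles, left) and the 2 48h_Foxa2 libraries (blue squares, right), with a bar at each group mean. Points under the dotted line are at or below 0.01 CPM. Gkn2, Tff1, Tff3, Cdx2 and Sftpd lie on the lowest line at 48 h, and the late libraries spread widely for Tff1, Clca1 and Sftpd.

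The intestinal list gained 6 of its 16 tested members (37.5%, against 20.4% over all genes) and lost none. Cdx2, the homeodomain factor that specifies intestinal identity, stood at 11, 28.3, 80.4 and 11.4 CPM in iHep_Foxa2 and had no count in 48h_Foxa2, at least 980-fold higher (adjusted p = 5.11e-05). Vil1, the actin-bundling protein of the brush border, stood at 133, 46.6, 26.6 and 14.7 CPM in iHep_Foxa2, against 0.0851 and 0.141 CPM in 48h_Foxa2. Every late library lay above both early ones for both genes, as for 32.1% of all genes. For Vil1 the log2 fold change was 8.90 ± 1.35 SE (adjusted p = 3.35e-05), and 7.98 without iHep_Foxa2 replicate 1. Not all intestinal markers appeared. Cdx1 had no count in any of the 6 libraries, and Guca2b, a gut peptide, reached at most 0.0365 CPM in iHep_Foxa2 and 0 in 48h_Foxa2. Of the 10 tested stomach genes, 5 rose and 1 fell, with 3 rises without either 48h_Foxa2 library. The gastric mucin gene Muc5ac stood at 4.71, 21.3, 5.10 and 1.79 CPM in iHep_Foxa2, against 0.0213 and 0.0234 CPM in 48h_Foxa2, and was not called (adjusted p = 0.0931). Tff2, the trefoil factor of deeper gastric glands, reached at most 0.0966 CPM in iHep_Foxa2 and 0 in 48h_Foxa2.

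The promoters of Cdx2 and Vil1 are shown because these genes mark the intestinal gain, and those of Myl9 and Srf because they carry the same motif as Vil1 but moved in opposite directions. Each run holds the 200 bases before the annotated start, 5′ to 3′ on the gene's strand, from RefSeq in build GRCm38.p6; capitals mark the match. The Cdx2 run is chr5:147307250-147307449 (minus strand) and holds the forkhead letters TGTTTAC read on the other strand. The runs of Vil1 (chr1:74409184-74409383, plus strand), Myl9 (chr2:156775264-156775463, plus strand) and Srf (chr17:46556163-46556362, minus strand) hold a CArG box, CC and GG around 6 bases of A or T, which occurs in targets of serum response factor.
Cdx2: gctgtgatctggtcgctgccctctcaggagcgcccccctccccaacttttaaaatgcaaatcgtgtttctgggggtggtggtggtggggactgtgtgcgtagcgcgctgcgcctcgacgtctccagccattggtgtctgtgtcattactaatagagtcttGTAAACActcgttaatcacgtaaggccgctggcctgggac
Vil1: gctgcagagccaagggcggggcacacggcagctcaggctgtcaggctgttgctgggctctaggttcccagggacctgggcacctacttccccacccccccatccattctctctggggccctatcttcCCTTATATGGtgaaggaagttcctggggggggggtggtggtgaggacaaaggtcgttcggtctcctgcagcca
Myl9: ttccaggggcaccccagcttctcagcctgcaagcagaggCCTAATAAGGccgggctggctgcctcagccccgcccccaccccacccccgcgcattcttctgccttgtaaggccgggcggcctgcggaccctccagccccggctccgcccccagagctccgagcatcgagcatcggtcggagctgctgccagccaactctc
Srf: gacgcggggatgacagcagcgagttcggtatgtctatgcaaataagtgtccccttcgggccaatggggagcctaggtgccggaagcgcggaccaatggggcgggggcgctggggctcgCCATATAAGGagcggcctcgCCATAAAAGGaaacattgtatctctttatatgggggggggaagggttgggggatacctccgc
Over the 300-base windows of the table, on both strands, TGTTTAC occurs in the promoters of 3.7% of the genes called higher, 2.89% of those called lower, 3.25% of all genes tested and 4.05% of all genes in the table. The CArG box occurs in 1.71% of the genes called higher, 1.79% of those called lower, 1.57% of all genes tested and 1.81% of all in the table. A match is a description of letters and not a bound site.

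Lung genes varied between the late libraries. Of 7 tested members 6 were called higher (20.4% over all genes), and all 6 calls ended without either 48h_Foxa2 library. The test of the difference between the late changes with Foxa2 and Foxa1 called no gene at all. It therefore cannot tell whether lung genes differed between these factors. Nkx2-1, a transcription factor of lung and thyroid, stood at 68.6, 11.4, 0.787 and 55.6 CPM in iHep_Foxa2, against 0.255 and 0.304 CPM in 48h_Foxa2 (adjusted p = 0.0119). Sftpa1, a surfactant protein gene, stood at 98.6, 9.18, 0.0315 and 8.61 CPM in iHep_Foxa2 and had no count in 48h_Foxa2 (adjusted p = 0.0115). Sftpd, another surfactant protein gene, stood at 25.3, 43.3, 0.0945 and 4.00 CPM in iHep_Foxa2 and had no count in 48h_Foxa2 (adjusted p = 0.00647). Replicate 3 was the lowest iHep_Foxa2 library for all 3 genes. All 4 late libraries lay above both early ones, as for 32.1% of all genes. For Sftpa1 in replicate 3 this rests on 0.0315 CPM against 0.

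General epithelial genes rose broadly, 80% of those tested against 20.4% over all genes. Of 35 tested epithelial genes 28 rose and none fell (median log2 fold change 6.41, or 0.02 over all genes), with the same counts under the set term and at least 17 rises without either 48h_Foxa2 library. Cdh1, which encodes E-cadherin of adherens junctions, stood at 428, 967, 682 and 340 CPM in iHep_Foxa2, against 5.27 and 4.68 CPM in 48h_Foxa2 (log2 fold change 6.92 ± 0.69 SE, adjusted p = 2.36e-07). Cgn, the tight-junction protein cingulin, stood at 259, 408, 288 and 179 CPM in iHep_Foxa2, against 2.02 and 1.97 CPM in 48h_Foxa2 (log2 fold change 7.15 ± 0.83 SE, adjusted p = 1.42e-06). Lsr, a protein of tricellular junctions and a lipoprotein receptor, stood at 168, 274, 172 and 117 CPM in iHep_Foxa2, against 1.77 and 2.53 CPM in 48h_Foxa2 (log2 fold change 6.41 ± 0.52 SE, adjusted p = 1.51e-08). Every late library stood far above both early ones for these junction genes. Late libraries lay above both early ones for 32.1% of all genes. Keratins varied more, with Krt8 of simple epithelia at 88.5, 744, 320 and 125 CPM in iHep_Foxa2 against 1.98 and 2.06 CPM in 48h_Foxa2 (adjusted p = 2.91e-05). The biliary keratins Krt7 and Krt19 were highest in replicate 2, at 980 and 1980 CPM, and reached at least 148 and 372 CPM in the other iHep_Foxa2 libraries. They stood at no more than 4.70 and 91.4 CPM in 48h_Foxa2 (adjusted p = 0.00441 and 0.00447), and their calls ended without either 48h_Foxa2 library (adjusted p between 0.0559 and 0.0599). Of 11 tested cholangiocyte genes 3 rose (27.3%) and 2 fell (18.2%), near the shares over all genes, and no rise was called without either 48h_Foxa2 library. Cftr, the chloride channel of bile ducts, stood at 0.365, 3.70, 1.29 and 0.857 CPM in iHep_Foxa2 against 5.42 and 5.41 CPM in 48h_Foxa2, and was not called (adjusted p = 0.189).

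Some liver genes rose and others did not. Of 25 tested plasma protein genes 10 rose and 1 fell, of 31 coagulation and complement genes 10 rose, and of 20 lipoprotein genes 6 rose and 2 fell, against 20.4% higher and 19.7% lower over all genes. Apoa1, the structural apolipoprotein of HDL particles, stood at 3540, 6320, 2570 and 1830 CPM in iHep_Foxa2, against 1.06 and 1.76 CPM in 48h_Foxa2 (log2 fold change 11.30 ± 1.14 SE, adjusted p = 3.08e-07). The Hep libraries held 7052 and 5775 CPM, so that replicate 2 lay between them and the other 3 late libraries below. Ahsg, the secreted glycoprotein fetuin-A, stood at 1010, 536, 71.6 and 129 CPM in iHep_Foxa2, against 0.191 and 0.585 CPM in 48h_Foxa2 (adjusted p = 0.000379). Fgb, the fibrinogen beta chain, stood at 119, 126, 14.5 and 162 CPM in iHep_Foxa2, against 0.510 and 0.562 CPM in 48h_Foxa2 (adjusted p = 4.78e-05). These late levels were at most 5.58% and 1.74% of the lower Hep library.

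Alb, which encodes albumin, rested on 1 library. It stood at 914, 18.6, 14.5 and 3.04 CPM in iHep_Foxa2, against 2.04 and 1.64 CPM in 48h_Foxa2, and replicate 1 stood apart. Its call (log2 fold change 7.01 ± 2.18 SE, adjusted p = 0.0144) ended without iHep_Foxa2 replicate 1 (2.71, adjusted p = 0.107), without either 48h_Foxa2 library and with the set term (adjusted p = 0.0591). Even in replicate 1 the level was 0.697% of the lower Hep library. Other defining hepatocyte markers were near 0 at the late stage: Ttr, Apoa2, Apoh, Serpinc1 and Pck1 each stayed under 0.5 CPM in every iHep_Foxa2 library. Each of these was at most 0.00618% of the lower Hep library, and Cps1, which feeds ammonia into the urea cycle, was at most 0.0305%. By these 12 markers the cells labelled iHep carried Apoa1 at the hepatocyte level in 1 library, Ahsg and Fgb at a small share of it, and the rest, Alb included, under 1% of it.

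**Figure D3:**
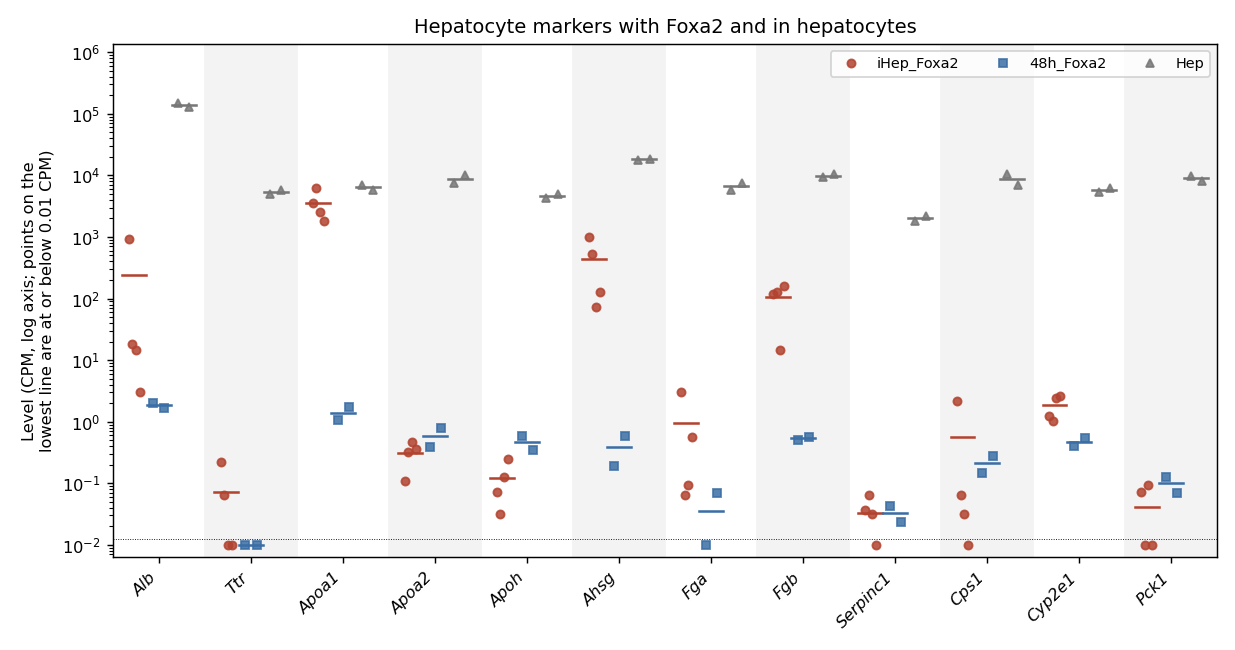
Level in CPM on a log axis of the 12 hepatocyte markers in the 4 iHep_Foxa2 libraries (red circles), the 2 48h_Foxa2 libraries (blue squares) and the 2 Hep libraries (grey triangles), with a bar at each group mean; points under the dotted line are at or below 0.01 CPM. Apoa1 alone reaches the Hep range in iHep_Foxa2, and Ttr, Apoa2, Apoh, Serpinc1 and Pck1 lie near the 48h_Foxa2 libraries.

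Several secreted proteins made by liver and other tissues also rose. Cp, the copper carrier ceruloplasmin, stood at 854, 1030, 359 and 987 CPM in iHep_Foxa2, against 14.9 and 12.4 CPM in 48h_Foxa2 (log2 fold change 5.88 ± 0.77 SE, adjusted p = 6.91e-06). Itih2, a heavy chain of the inter-alpha-trypsin inhibitor, stood at 786, 1010, 274 and 495 CPM in iHep_Foxa2, against 39.9 and 37.4 CPM in 48h_Foxa2 (log2 fold change 4.05 ± 0.57 SE, adjusted p = 1.34e-05). Trf, the iron carrier transferrin, stood at 138, 424, 117 and 292 CPM in iHep_Foxa2, against 6.19 and 5.55 CPM in 48h_Foxa2 (adjusted p = 8.99e-05). For each of the 3, every late library lay above both early ones, as for 32.1% of all genes.

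Metabolic liver genes rose in part of each list, in several lists at a share near the 20.4% higher and 19.7% lower over all genes. Of 28 xenobiotic metabolism genes 11 rose and none fell, led by glutathione transferases. Gsta4 stood at 982, 1010, 453 and 404 CPM in iHep_Foxa2, against 32.4 and 31.7 CPM in 48h_Foxa2 (log2 fold change 4.47 ± 0.44 SE, adjusted p = 1.85e-07). Ephx2, a soluble epoxide hydrolase, stood at 176, 267, 251 and 133 CPM in iHep_Foxa2, against 12.4 and 13.4 CPM in 48h_Foxa2 (log2 fold change 4.00 ± 0.44 SE, adjusted p = 8.52e-07). Of 27 genes of amino acid and urea metabolism 8 rose and 4 fell. Glul, glutamine synthetase, stood at 1770, 1360, 968 and 786 CPM in iHep_Foxa2, against 41.1 and 39.0 CPM in 48h_Foxa2 (log2 fold change 4.93 ± 0.73 SE, adjusted p = 2.41e-05). Tat, tyrosine aminotransferase, stood at 5.73, 5.77, 7.65 and 97.3 CPM in iHep_Foxa2 and had no count in 48h_Foxa2 (adjusted p = 0.00088), with replicate 4 apart. The urea-cycle enzyme gene Ass1 fell, standing at 20.4, 15.8, 17.3 and 44.7 CPM in iHep_Foxa2 against 139 and 127 CPM in 48h_Foxa2 (log2 fold change -2.44 ± 0.58 SE, adjusted p = 0.0023). Of 15 bile acid genes 4 rose and 1 fell, among them Cyp27a1 of the acidic pathway, at 48.8, 23.9, 30.8 and 15.1 CPM in iHep_Foxa2 against 0.489 and 0.632 CPM in 48h_Foxa2 (adjusted p = 1.13e-05). Of 12 glucose and fructose genes 3 rose, and of 14 genes of fatty acid oxidation and ketogenesis 5 rose and 3 fell. Without 48h_Foxa2 replicate 1 or 2 the counts of rises in several of these lists dropped, to 4 in each case for xenobiotic metabolism, to 1 in each case for lipoprotein genes, to 3 and 5 for amino acid and urea metabolism, to 2 and 1 for bile acid genes, to 1 in each case for fatty acid oxidation, to 7 and 6 for plasma proteins, and to 4 and 5 for coagulation and complement. Without iHep_Foxa2 replicate 1 the lipoprotein rises also numbered 1, and with the set term none of the 3 falls in fatty acid oxidation was called.

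Of 20 hepatic transcription factors 7 rose and none fell, against 20.4% higher over all genes, and 5 or 6 rose without either 48h_Foxa2 library. Cebpa, a hepatocyte and adipocyte factor, stood at 141, 148, 136 and 102 CPM in iHep_Foxa2, against 17.7 and 21.2 CPM in 48h_Foxa2 (log2 fold change 2.76 ± 0.50 SE, adjusted p = 0.000221). Gata4, an endoderm and heart factor, stood at 17.7, 14.5, 4.85 and 8.89 CPM in iHep_Foxa2, against 0.489 and 0.422 CPM in 48h_Foxa2 (adjusted p = 0.000336). Gata6 stood at 30.9, 35.7, 35.8 and 33.0 CPM in iHep_Foxa2, against 6.32 and 7.45 CPM in 48h_Foxa2 (adjusted p = 0.000393), and Hhex, which is required for liver bud growth, averaged 7.40 ± 3.32 CPM in iHep_Foxa2 and 0.361 ± 0.119 CPM in 48h_Foxa2 (SD, n = 4 and 2, adjusted p = 0.000172). The Cebpa and Gata6 values were nearly level among the 4 late libraries, unlike Hnf4a. Of 12 tested fetal liver genes 3 rose (25%) and 2 fell (16.7%), near the 20.4% and 19.7% over all genes. Fewer rises were called without either 48h_Foxa2 library. Dlk1 and Igf2 were not called (adjusted p = 0.381 and 0.0558). Without iHep_Foxa2 replicate 3 Dlk1 was called lower (log2 fold change -1.90, adjusted p = 0.0403), and without replicate 4 Igf2 was (-2.87, adjusted p = 0.0202). Igf2 was also called lower by DESeq2's Wald test and by limma on log2(FPKM + 1) (adjusted p = 0.0279 and 0.0258). Gpc3, a fetal liver glypican that fibroblasts also make, stood at 21.8, 14.6, 12 and 6 CPM in iHep_Foxa2, against 308 and 318 CPM in 48h_Foxa2 (log2 fold change -4.52 ± 0.87 SE, adjusted p = 0.000364).

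Fibroblast genes were largely lost. The summed level of 9 fibroblast markers was 474, 175, 516 and 681 CPM in iHep_Foxa2, against 24800 and 25100 CPM in 48h_Foxa2 and 86.6 and 54.1 CPM in Hep. Fewer fibroblasts in the culture and less fibroblast RNA per cell cannot be told apart in bulk samples. Of 32 tested mesenchymal matrix genes 24 fell and none rose, with 20 falls under the set term and between 22 and 25 when any 1 of the 6 libraries was left out. The falls made up 75% of the tested matrix genes, against 19.7% over all genes. Lum, a collagen-binding proteoglycan, stood at 0.073, 0, 0.0315 and 0.0357 CPM in iHep_Foxa2, against 408 and 436 CPM in 48h_Foxa2 (log2 fold change -13.44 ± 0.75 SE, adjusted p = 6.86e-11). Mfap4, a microfibril protein, stood at 0.0365, 0, 0.0315 and 0 CPM in iHep_Foxa2, against 197 and 227 CPM in 48h_Foxa2 (adjusted p = 2.29e-07). Over all 4 late libraries Lum kept 4 counts and Mfap4 kept 2. Col3a1, a fibrillar collagen chain, stood at 7.52, 5.80, 11.5 and 5.75 CPM in iHep_Foxa2, against 7230 and 7730 CPM in 48h_Foxa2 (log2 fold change -9.94 ± 0.96 SE, adjusted p = 1.59e-07). Col1a1, the main collagen chain of fibroblasts, fell less, standing at 152, 93.6, 300 and 259 CPM in iHep_Foxa2 against 8210 and 8080 CPM in 48h_Foxa2 (log2 fold change -5.34 ± 0.79 SE, adjusted p = 2.54e-05). Fn1, fibronectin, which hepatocytes also make, was not called at 5250, 3070, 2880 and 5170 CPM in iHep_Foxa2 and 6690 and 6060 CPM in 48h_Foxa2 (adjusted p = 0.465). Timp3, a protease inhibitor of the matrix, was not called either (adjusted p = 0.165). Yet all 4 late libraries, at 2550 CPM or more, lay above the early ones at 1100 and 1140 CPM. The late libraries did so for 32.1% of all genes. By the same test on the 6 compared libraries alone Timp3 was called higher (log2 fold change 1.61, adjusted p = 0.00516). In 15 of 16 alternatives it was not called.

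Beyond the matrix, the 12 largest falls held Ldb2 (a cofactor of LIM factors), Penk (the enkephalin precursor), Dkk2 (a secreted Wnt modulator), Agtr2 (an angiotensin receptor), Ptn (pleiotrophin, a growth factor), C1qtnf3, Igsf10 and Tmem132c beside Lum, Mfap4, Col3a1 and Eln (elastin). Penk stood at 0.621, 0.322, 2.90 and 0.571 CPM in iHep_Foxa2, against 1710 and 1670 CPM in 48h_Foxa2 (adjusted p = 5.34e-08). Dkk2 stood at 0.110, 0.0322, 0.630 and 0.286 CPM in iHep_Foxa2, against 266 and 310 CPM in 48h_Foxa2 (adjusted p = 6.99e-10). Elastin stood at 0, 0.226, 0.0315 and 1.68 CPM in iHep_Foxa2 (Eln), against 764 and 893 CPM in 48h_Foxa2 (adjusted p = 8.36e-06). The rule that chose these genes required that the stages not overlap.

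**Figure D4:**
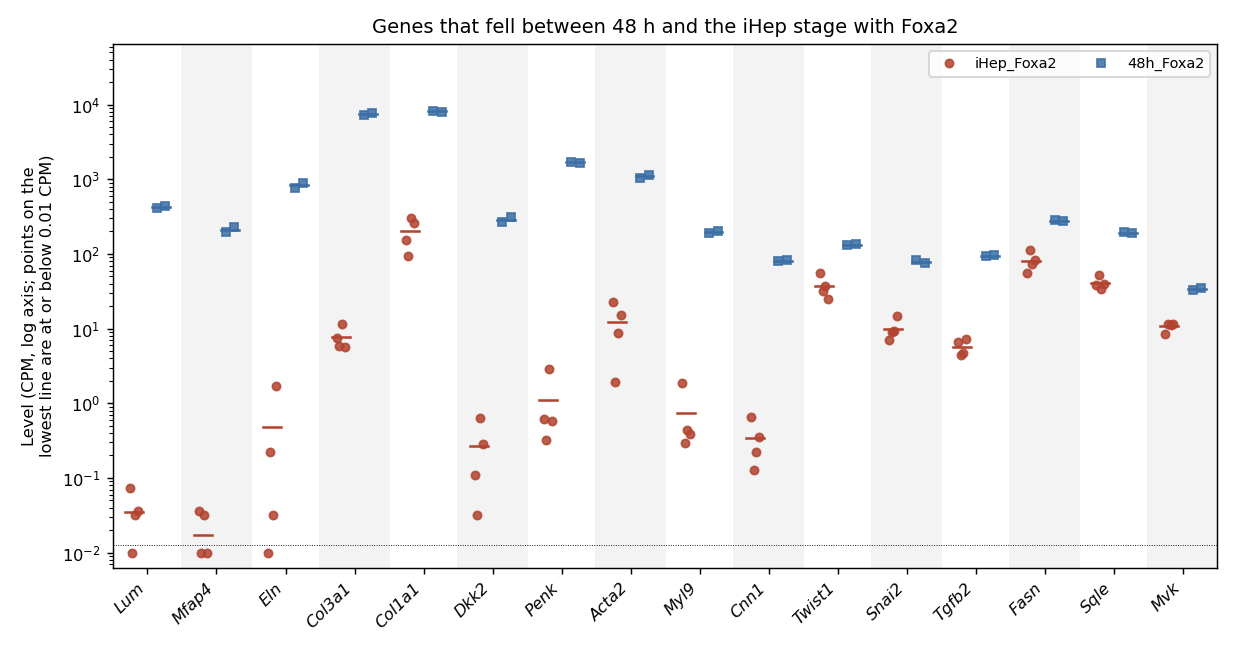
Level in CPM on a log axis for 16 genes that fell, in the 4 iHep_Foxa2 libraries (red circles, left) and the 2 48h_Foxa2 libraries (blue squares, right), with a bar at each group mean. Points under the dotted line are at or below 0.01 CPM. Lum and Mfap4 reach the lowest part of the axis in iHep_Foxa2, while Twist1 and the lipid synthesis genes Fasn, Sqle and Mvk fall by far less.

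Contractile genes fell with the matrix, 65% of those tested against 19.7% over all genes. Rises made up 15%, against 20.4% over all genes. Of 20 tested smooth muscle contractile genes 13 fell and 3 rose; with the set term 13 fell and none rose, and none rose without either 48h_Foxa2 library. Acta2, smooth muscle actin, stood at 22.9, 1.90, 8.85 and 15.0 CPM in iHep_Foxa2, against 1050 and 1130 CPM in 48h_Foxa2 (log2 fold change -6.49 ± 0.68 SE, adjusted p = 4.54e-07). Cnn1, calponin, stood at 0.657, 0.129, 0.220 and 0.357 CPM in iHep_Foxa2, against 79.8 and 83.1 CPM in 48h_Foxa2 (log2 fold change -7.90 ± 0.94 SE, adjusted p = 2.07e-06). Myl9, a regulatory myosin light chain whose promoter run above holds a CArG box, stood at 1.86, 0.290, 0.441 and 0.393 CPM in iHep_Foxa2, against 189 and 206 CPM in 48h_Foxa2 (adjusted p = 1.15e-08). Srf, which encodes serum response factor itself, moved the other way, at 92.9, 185, 189 and 133 CPM in iHep_Foxa2 against 45.9 and 48.3 CPM in 48h_Foxa2 (log2 fold change 1.67 ± 0.48 SE, adjusted p = 0.00937). Its call ended without 48h_Foxa2 replicate 1 or 2 (adjusted p = 0.0844 and 0.0773) and with the set term (0.45, adjusted p = 0.371).

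Mesenchymal transcription factors were lost in part. Of 24 tested 8 fell (33.3%, against 19.7% over all genes) and 2 rose (8.33%, against 20.4%). Twist1, an inducer of mesenchyme, stood at 55.6, 31.5, 37.5 and 24.6 CPM in iHep_Foxa2, against 130 and 135 CPM in 48h_Foxa2 (log2 fold change -1.83 ± 0.27 SE, adjusted p = 2.86e-05). Snai2, a repressor of E-cadherin, stood at 7.08, 8.99, 9.16 and 14.6 CPM in iHep_Foxa2, against 82.6 and 75.1 CPM in 48h_Foxa2 (log2 fold change -2.98 ± 0.53 SE, adjusted p = 0.000179). Prrx1, a limb mesenchyme factor, stood at 78.4, 21.4, 126 and 249 CPM in iHep_Foxa2, against 950 and 886 CPM in 48h_Foxa2 (log2 fold change -2.95 ± 0.75 SE, adjusted p = 0.00382, and -3.61 without iHep_Foxa2 replicate 4). These 3 factors were still well above the counting floor in every late library. Meox2, a homeobox factor of somites, was lost almost entirely, at 0.073, 0, 0.157 and 0.0357 CPM in iHep_Foxa2 against 10.5 and 11.9 CPM in 48h_Foxa2 (adjusted p = 1.87e-05). Runx1, best known from blood formation, rose to 147, 126, 110 and 73.2 CPM in iHep_Foxa2, against 24.6 and 21.5 CPM in 48h_Foxa2 (log2 fold change 2.31 ± 0.23 SE, adjusted p = 2.11e-07). Among 20 genes of the TGF-beta pathway 6 fell (30%) and 3 rose (15%), near the 19.7% lower and 20.4% higher over all genes; 1 and 0 rose without 48h_Foxa2 replicates 1 and 2. The ligand gene Tgfb2 stood at 6.53, 4.41, 4.66 and 7.21 CPM in iHep_Foxa2, against 93.2 and 96.6 CPM in 48h_Foxa2 (log2 fold change -4.06 ± 0.55 SE, adjusted p = 1.06e-05). The ligand gene Tgfb1 moved up, at 115, 51.3, 67.8 and 74.1 CPM in iHep_Foxa2 against 22.5 and 21.6 CPM in 48h_Foxa2 (adjusted p = 0.0131), but was not called without either 48h_Foxa2 library (adjusted p = 0.0911 and 0.105) or with the set term (adjusted p = 0.503). The receptor gene Tgfbr2 was not called (log2 fold change -0.25 ± 0.15 SE, adjusted p = 0.182).

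Most Hox genes, which record the body position of the parent fibroblast, were not called. Of 38 tested 1 rose (2.63%), 2 fell (5.26%) and 35 were not called, against 20.4% higher and 19.7% lower over all genes. Hoxa9 stood at 38.6, 34.1, 29.8 and 28.7 CPM in iHep_Foxa2, against 19.9 and 21.1 CPM in 48h_Foxa2 (adjusted p = 0.47). By the same test on the 6 compared libraries alone Hoxa9 was called higher (log2 fold change 0.65, adjusted p = 0.0219). In 15 of 16 alternatives it was not called. The distal gene Hoxd12 fell, with 0.073, 0, 0.220 and 0.143 CPM in iHep_Foxa2 against 26.3 and 24.4 CPM in 48h_Foxa2 (adjusted p = 7.8e-06). Its neighbour Hoxd13 stood at 12.1, 0.193, 37.8 and 0.893 CPM in iHep_Foxa2, against 211 and 224 CPM in 48h_Foxa2 (adjusted p = 0.0196). That call ended without either 48h_Foxa2 library (adjusted p = 0.0598 and 0.0583) and with the set term (adjusted p = 0.108).

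Markers of other cell types were mostly low at the late stage, with exceptions among adipocyte and chondrocyte markers. The 8 leukocyte and macrophage markers in the files summed to 2.08, 0.644, 1.17 and 0.25 CPM in iHep_Foxa2, against 13.3 and 8.92 CPM in 48h_Foxa2, with C1qa, C1qb, C1qc and Tyrobp at 0 in all 4 late libraries. Of 16 tested leukocyte and Kupffer cell genes 11 fell and none rose, with 2 falls under the set term. Of 14 endothelial genes 6 fell and 1 rose, of 10 stellate and pericyte genes 5 fell, and of 7 chondrocyte genes 3 fell. Over all genes 19.7% fell and 20.4% rose. Without 48h_Foxa2 replicate 1 the endothelial falls numbered 3, and without replicate 1 or 2 the stellate falls numbered 3 and the chondrocyte falls 2. Of 5 tested adipocyte genes 1 rose, and of 3 tested skeletal muscle genes 1 fell, or none without either 48h_Foxa2 library. The adipocyte rise is 20% of the tested members, near the 20.4% over all genes. Fabp4, a fatty acid carrier of adipocytes, stood at 56.7, 4.03, 18.1 and 3.25 CPM in iHep_Foxa2, against 16.8 and 15.9 CPM in 48h_Foxa2. Col2a1, the cartilage collagen chain, stood at 5.55, 30.5, 14.7 and 13.8 CPM in iHep_Foxa2, against 28.2 and 25.2 CPM in 48h_Foxa2. The stages overlap for both genes. Tek, an endothelial receptor, stood at 0.073, 0.0322, 0.0945 and 0 CPM in iHep_Foxa2, against 5.83 and 7.70 CPM in 48h_Foxa2 (adjusted p = 8.68e-06). The part of these cells in the losses was not tested.

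Most genes of cholesterol and fatty acid synthesis fell, 70.8% of those tested against 19.7% over all genes. Of 24 genes 17 fell and none rose (median log2 fold change -1.70), and 14 or 15 fell without 48h_Foxa2 replicate 1 or 2. Fasn, fatty acid synthase, stood at 56.4, 114, 73.7 and 81.9 CPM in iHep_Foxa2, against 287 and 274 CPM in 48h_Foxa2 (log2 fold change -1.79 ± 0.29 SE, adjusted p = 7.52e-05). Mvk, mevalonate kinase, stood at 8.54, 11.5, 11.2 and 11.5 CPM in iHep_Foxa2, against 33.1 and 34.8 CPM in 48h_Foxa2 (log2 fold change -1.66 ± 0.27 SE, adjusted p = 6.98e-05). Sqle, squalene epoxidase, stood at 38.0, 52.7, 34.2 and 39.5 CPM in iHep_Foxa2, against 194 and 188 CPM in 48h_Foxa2 (log2 fold change -2.22 ± 0.43 SE, adjusted p = 0.000388). All 4 late libraries lay below both early ones for each of these genes, as for 34.3% of all genes. With the set term 9 of 24 were called lower; the log2 fold change was then -1.53 for Fasn, -1.14 for Mvk and -1.25 for Sqle, each still called (adjusted p = 0.00361, 0.00763 and 0.0476). Within the high set 5 of 24 fell with Foxa1, while with Foxa3 4 fell and 2 rose. Over all genes 26.6% fell with Foxa1, and with Foxa3 24.9% fell and 24.4% rose. None of these counts lies above its share. Against MEF, which like iHep_Foxa2 is in the low set, 20 of 24 were lower in iHep_Foxa2 and none was higher. The shares over all genes there were 15.5% lower and 15.3% higher. Scd1, stearoyl-CoA desaturase, was not called (adjusted p = 0.511).

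Immediate early genes were mostly higher, 73.7% of those tested against 20.4% over all genes. Of 19 immediate early genes, which respond within minutes to serum and growth factors, 14 rose and none fell, with 10 under the set term and 8 without either 48h_Foxa2 library. Against MEF, which shares the low set, 3 of 19 were higher in iHep_Foxa2, near the 15.3% over all genes. Egr1, Klf4 and Junb were not called against MEF (adjusted p = 0.0955, 0.102 and 0.191). Egr1, an early zinc-finger factor, stood at 1770, 953, 1590 and 737 CPM in iHep_Foxa2, against 76.0 and 70.9 CPM in 48h_Foxa2 (log2 fold change 4.10 ± 0.79 SE, adjusted p = 0.000357). Junb, an AP-1 subunit, stood at 3390, 3000, 3110 and 1690 CPM in iHep_Foxa2, against 46.1 and 30.2 CPM in 48h_Foxa2 (adjusted p = 0.000881). Junb follows the library set among the iHep_Foxa1 libraries, at 247 CPM on average in replicates 4 to 6 and 2120 CPM in replicates 1 to 3. It does not do so throughout the series. The libraries of a further 48 h group (48h_Foxa3del2), which lie in the low set, held 87.5 and 93.5 CPM. The part of the set in the rise was not tested beyond the set term. Under that term the log2 fold change of Junb was 3.34 ± 0.69 SE (adjusted p = 0.00107) in place of 6.2 ± 1.31 SE. Klf4, a factor of epithelial barrier cells, stood at 324, 380, 400 and 264 CPM in iHep_Foxa2, against 47.5 and 47.6 CPM in 48h_Foxa2 (log2 fold change 2.85 ± 0.33 SE, adjusted p = 1.21e-06).

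Among 18 p53 targets and CDK inhibitors 7 rose and 3 fell, with 6 rises and 1 fall without 48h_Foxa2 replicate 1 and 4 rises and 2 falls without replicate 2. Mdm2, the p53 ubiquitin ligase and itself a p53 target, stood at 972, 737, 841 and 971 CPM in iHep_Foxa2, against 124 and 115 CPM in 48h_Foxa2 (log2 fold change 2.88 ± 0.50 SE, adjusted p = 0.000131). Trp53inp1, a p53-induced nuclear protein, stood at 1010, 1430, 1110 and 898 CPM in iHep_Foxa2, against 248 and 225 CPM in 48h_Foxa2 (log2 fold change 2.24 ± 0.31 SE, adjusted p = 1.39e-05). Both were nearly level among the late libraries. In the p53 list 38.9% of members rose and 16.7% fell, against 20.4% and 19.7% over all genes. Of 26 proliferation genes 7 fell, 1 rose and 18 were not called, with 1 fall under the set term and 2 and 3 falls without 48h_Foxa2 replicates 1 and 2. The falls made up 26.9% of the proliferation list, near the 19.7% over all genes, and the rise 3.85%, against 20.4%. Cdk1, the mitotic kinase, stood at 15.3, 38.1, 26.9 and 46.1 CPM in iHep_Foxa2, against 102 and 102 CPM in 48h_Foxa2 (log2 fold change -1.69 ± 0.45 SE, adjusted p = 0.00508, and -0.56 with adjusted p = 0.31 under the set term). Top2a, a topoisomerase of dividing cells, was not called at 94.3, 301, 198 and 366 CPM in iHep_Foxa2 and 333 and 321 CPM in 48h_Foxa2 (adjusted p = 0.405).

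Of 25 interferon response genes 10 rose (40%, against 20.4% over all genes) and none fell, with 7 rises under the set term. Within the high set 5 rose and 2 fell with Foxa1, while with Foxa3 6 rose and 7 fell. Over all genes 25.3% rose and 26.6% fell with Foxa1, and 24.4% rose and 24.9% fell with Foxa3. Oas2, an RNA-sensing synthetase, stood at 45.2, 146, 63.4 and 249 CPM in iHep_Foxa2, against 0.234 and 0.304 CPM in 48h_Foxa2 (log2 fold change 8.85 ± 1.49 SE, adjusted p = 9.75e-05). Mx2, an antiviral GTPase, stood at 9.45, 36.2, 24.4 and 44.7 CPM in iHep_Foxa2, against 1.25 and 1.15 CPM in 48h_Foxa2 (log2 fold change 4.57 ± 0.66 SE, adjusted p = 2.09e-05). Ifih1, a cytosolic sensor of double-stranded RNA, stood at 23.5, 53.5, 26.4 and 67.7 CPM in iHep_Foxa2, against 12.9 and 12 CPM in 48h_Foxa2 (adjusted p = 0.00149). Replicates 4 and 2 were the highest late libraries for all 3 genes. Every late library lay above both early ones, as for 32.1% of all genes. Of 20 genes of the unfolded protein and integrated stress responses 4 rose (20%) and 2 fell (10%), no more than over all genes, and neither fall was called without either 48h_Foxa2 library or with the set term. Hspa5, the chaperone BiP, was not called (log2 fold change 0.18 ± 0.34 SE, adjusted p = 0.695).

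The calls of cytosolic ribosomal protein genes changed with the set term. Of 80 tested 14 rose (17.5%) and 6 fell (7.5%) in iHep_Foxa2 against 48h_Foxa2, below the 20.4% and 19.7% over all genes. The spread behind these calls includes both library sets of iHep_Foxa1 and iHep_Foxa3. For Rps27 the SE was 0.94 here. It was 0.27 for iHep_Foxa1 replicates 1 to 3 against 48h_Foxa1 in the fit split by set. The low shares therefore do not show that these genes changed less than others. Without 48h_Foxa2 replicate 1, 8 rose and 0 fell, and without replicate 2, 4 rose and 1 fell. With the set term 53 rose and none fell, against 16.3% higher and 15.8% lower over all genes. Within the high set 77 rose with Foxa1 and 75 with Foxa3, and none fell in either. Over all genes 25.3% rose with Foxa1 and 24.4% with Foxa3.

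**Figure D5:**
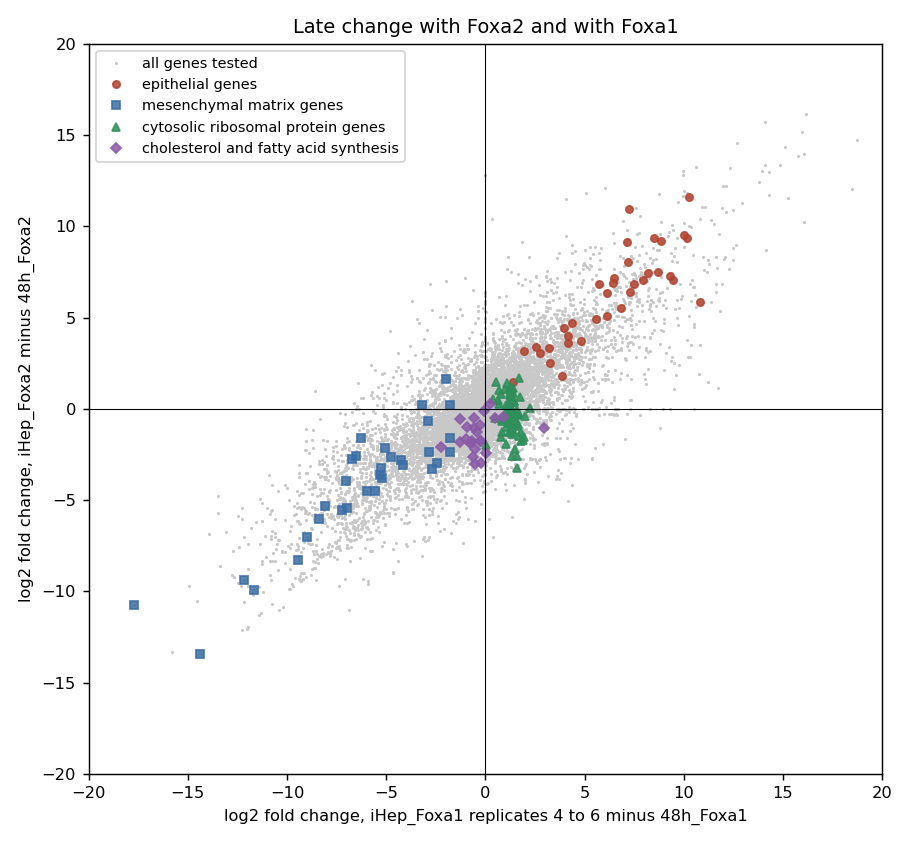
Fitted log2 fold change of every gene tested, iHep_Foxa2 minus 48h_Foxa2 (vertical axis) and iHep_Foxa1 replicates 4 to 6 minus 48h_Foxa1 (horizontal axis), with 4 gene lists coloured. Epithelial genes lie in the upper right and most matrix genes in the lower left. Most ribosomal protein genes lie right of 0 with Foxa1 and on both sides of 0 with Foxa2.

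Whether late change differed between Foxa2 and Foxa1 was tested directly, as the difference between iHep_Foxa2 minus 48h_Foxa2 and iHep_Foxa1 replicates 1 to 3 minus 48h_Foxa1, both of which run from the high to the low library set. No gene of 16499 was called by edgeR's quasi-likelihood test (0%); 468 genes (2.84%) had an unadjusted p under 0.05, and the lowest adjusted p was 0.304. DESeq2 called 5 genes, all lower. Foxa2 itself had a difference of 3.75 ± 1.19 SE and Foxa1 of -4.60 ± 1.01 SE on the log2 scale (adjusted p = 1 for each), although the delivered factor itself differs between these cells. For Apoa1 the difference was 0.68 ± 0.54 SE and for Hnf4a -0.38 ± 0.82 SE.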

How the data were processed

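RNA-seq was read from the deposited files of 28 libraries, of which 6 form the comparison. Per the labels' protocols, RNA came from the RNeasy Micro kit and libraries from the Illumina TruSeq Stranded mRNA kit. Per the submitters' processing notes, reads were aligned with BWA 0.7.12 and the build was mm9; no source used here names the quantifier or annotation. Per the file headers and values, the authors deposited 3 values for each of 30710 RefSeq transcripts: expected counts, FPKM and the fraction of reads (not analysed). Only gene names were taken from GRCm38, and 339 transcripts without one were left out; they took 0.715% to 2.51% of the reads of the 6 libraries.

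Expected counts were summed to 23712 gene rows, rounded, filtered with filterByExpr to 16499 genes and scaled by TMM. edgeR 4.0.16 (R 4.3.3) fitted the 9 groups of all 28 libraries (19 residual degrees of freedom) and tested 2-sided with Benjamini-Hochberg adjustment; fold changes are log2. A second fit split iHep_Foxa1 and iHep_Foxa3 by library set (Rn7sk above 10 CPM), with 17 degrees of freedom. On simulated data 100 genes were changed at each size, drawn from those above 5 CPM. The test recovered 28% of 2-fold and 79% of 4-fold changes among 16499 genes and called 5 unchanged ones. The changed genes were far fewer than the 40.1% of genes called here, so these rates describe that setting only. The floor of 3 counts covers counting error only. Each SE is the absolute log2 fold change divided by the square root of the F statistic. It therefore includes the spread between libraries, pooled over the groups of the fit. Replicates of iHep_Foxa2 correlated at r between 0.951 and 0.962 across genes, those of 48h_Foxa2 at 0.992, and none was a duplicate.

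The members and the 34 lists (723 genes, of which 4 are not in the table and 35 were not tested) were chosen with earlier results of these data known. Genes named with values are the introduced factors, the 12 largest rises and falls, Rn7sk, Rps29, Junb and fixed cell type markers. Up to 4 called genes per direction and 4 of highest level per list were named as well. Alternatives were DESeq2 1.42.0 (size factors, Wald test), limma 3.58.1 on log2(FPKM + 1) and log2(FPKM + 0.1) of genes reaching 1 FPKM in 2 libraries, no filter, single transcripts, fewer libraries, a replicate block, a set term and leaving out each library.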

Additional observations from a re-analysis of the deposited data

Results flagged for a closer look

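In 13 of 119 genes with unequal values (10.9%), 1 of the 4 iHep_Foxa2 libraries stood apart from the other 3. Its gap exceeded Dixon's critical share of the range. The chance rate of about 1 in 20 holds for normally distributed values. Untransformed CPM were used here, so the 10.9% cannot be judged against that rate. Replicate 1 stood apart for 4 genes and replicates 2, 3 and 4 for 3 each. The gap was 0.983 for Alb (914 CPM in replicate 1, next 18.6 CPM), 0.907 for Sftpa1 (98.6 CPM in replicate 1, next 9.18 CPM), 0.904 for Myl9 (1.86 CPM in replicate 1, next 0.441 CPM) and 0.899 for Mvk (lowest in replicate 1 at 8.54 CPM, next 11.2 CPM). It was 0.978 for Krt7 (980 CPM in replicate 2, next 166 CPM), 0.835 for Cldn2, a claudin (340 CPM in replicate 2, next 143 CPM), and 1 for Ldb2, which has 2 counts in replicate 2 and none in the others. It was 0.873 for Krt6a (311 CPM in replicate 3, next 51.3 CPM), 0.884 for Penk (2.90 CPM in replicate 3, next 0.621 CPM) and 1 for Csf1r, the macrophage growth factor receptor, with 3 counts in replicate 3 and none in the others. It was 0.979 for Tat (97.3 CPM in replicate 4, next 7.65 CPM), 0.865 for Eln (1.68 CPM in replicate 4, next 0.226 CPM) and 0.841 for Ass1 (44.7 CPM in replicate 4, next 20.4 CPM).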

How the results depend on the processing

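The 6619 calls between iHep_Foxa2 and 48h_Foxa2 ran between 4949 (with a 2-fold minimum) and 7592 under the other scalings, tests, filters and library choices, and fell to 4115 (2012 higher, 2103 lower) at an adjusted p under 0.01. Under DESeq2 size factors the median gene stood at a log2 fold change of -0.04. Leaving out 1 library gave between 3647 and 6355 calls (1361 to 3275 higher, 2091 to 3080 lower). Replicate numbers did not pair the libraries (correlations of -0.01 and -0.04); a fit with them as a replicate block gave 7592 calls, and 6741 for iHep_Foxa1 replicates 4 to 6 against 48h_Foxa1, whose calls ran between 6176 and 8180 when 1 library was left out (2757 to 3962 higher, 3419 to 4218 lower). For the difference of late changes, 5 genes were called by the DESeq2 Wald test (5 lower), 2 by limma on log2(FPKM + 1) (1 higher, 1 lower), 2 with the replicate block (2 lower), and between 0 and 1 when 1 library was left out. With the set term Foxa2 reversed to -0.46, Rn7sk to 2.01 and Rps29 to 0.89, none of them past the threshold; the cause was not tested. With the replicate block Dlk1 and Igf2 were called lower (-2.17 and -2.80, adjusted p = 0.0367 each). The 2 libraries at 48 h and the set confounded with stage limit all calls.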
